A study of Mus musculus with 14 samples.

Results

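The Nrf2 antioxidant genes were followed in autochthonous mouse lung adenocarcinomas with and without targeting of the histone methyltransferase gene Setd2. They were named by symbol as Nrf2 (Nfe2l2), its inhibitor Keap1 and 8 antioxidant genes under Nrf2 control (Nqo1, Gclc, Gclm, Hmox1, Txnrd1, Slc7a11, Srxn1 and Gsr), which makes 10 of the 52550 genes in the count table. All 10 had a single row in the table, and all 10 passed the expression filter that left 16836 genes for testing. All tumors, controls included, arose in mice of a mixed B6J/129S4vJae background that carried, among the alleles of the KPY model, floxed Trp53 (flox/flox) and a Cre-inducible reporter at Rosa26 (LSL-YFP/LSL-YFP), after endotracheal delivery of LentiCRISPRv2Cre, a virus that carries Cre recombinase, Cas9 and a guide RNA. The 6 KPY-Ctrl tumors received the sgBGal control guide and the 8 KPY-Setd2KO tumors a guide against Setd2. According to the study's methods, live YFP-positive cells were sorted from microdissected tumors, whereas the sample labels describe RNA from cell lines and other kits, a conflict that could not be settled here. The study lists fewer mice than tumors for each genotype, and which mouse each tumor came from was not given (for age only an upper limit at tumor initiation was), so p-values treat tumors as independent and may be too small.

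Total counts ranged from 20072236 to 51828846 per tumor. The tumors stood apart in RNA that marks immune cells: a leukocyte score, the mean log2 CPM (counts scaled to library size) of 20 leukocyte genes such as Ptprc and Spi1, ran from 2.95 to 5.15 in 7 tumors (KPY-Ctrl 3, 4 and 5 and KPY-Setd2KO 5, 6, 7 and 8) and from 7.79 to 8.52 in the other 7 (KPY-Ctrl 1, 2 and 6 and KPY-Setd2KO 1, 2, 3 and 4), with none between. The summed level of 20 macrophage markers, all of which passed the filter, ran from 464 to 2179 CPM in the first 7 tumors and from 19956 to 68741 CPM in the other 7, and that of 20 epithelial markers from 25887 to 75860 CPM and from 7665 to 26076 CPM. Epithelial markers were therefore present in every tumor, at lower levels where leukocyte and macrophage markers were high. Results are given over all 14 tumors, with the leukocyte score as a covariate, and for the 7 tumors low in leukocyte-marker RNA. In RNA from mixed cells, fewer cells of a type and less RNA per cell cannot be told apart. Setd2 itself was 41.9 to 63.6 CPM in KPY-Ctrl (median 53.8) and 17.9 to 47.4 CPM in KPY-Setd2KO (median 30.4). The genotypes overlapped, and KPY-Setd2KO minus KPY-Ctrl was -0.81 in mean log2 CPM (exact permutation test, two-sided, 3003 splits of the tumors, p = 0.00466, and edgeR's quasi-likelihood test, adjusted p = 0.175). With the leukocyte score in the model edgeR called Setd2 (log2 fold change -0.84, adjusted p = 0.0277).

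Nrf2 is a transcription factor that Keap1, an adaptor of the Cul3 ubiquitin ligase, holds at low protein levels. Oxidants and electrophiles modify Keap1, Nrf2 then accumulates, pairs with small Maf proteins and binds antioxidant response elements in its target genes. In lung adenocarcinoma the pathway is known for recurrent KEAP1 and NFE2L2 mutations. Nrf2 is controlled mostly as a protein, so its RNA level is not its activity.

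Sequences upstream of the genes are shown first, because they were searched for the element through which Nrf2 acts and for one that Atf4 binds. RefSeq promoters (GRCm38.p6) were on hand for 7 of the 10 genes, with 9 start sites, and the 250 bases before each start were searched on both strands. The loose antioxidant response element TGANNNNGC was found for 6 of the 7 genes, and in 35.2% of all 32851 promoters searched in the same way. The stricter TGACNNNGC, which is contained in it, was found for Nfe2l2, Gclm and Txnrd1, and in 10.2% of all promoters. TGATGCAA, the core of the amino acid response element that Atf4 binds, was found only in the Slc7a11 promoter among the 7 genes, where it stood at 2 places in opposite orientations, and it was found in 0.791% of all promoters. A match is a description of letters, not a shown binding site. The windows below are given 5′ to 3′ on the strand of the gene, with every match to these motifs in capitals. They come from chr3:50443638-50443722 (minus strand) for Slc7a11, chr2:152105354-152105499 (plus strand) for Srxn1, chr3:122245411-122245443 (plus strand) for Gclm and chr10:82859102-82859134 (plus strand) for the second start of Txnrd1.
Slc7a11: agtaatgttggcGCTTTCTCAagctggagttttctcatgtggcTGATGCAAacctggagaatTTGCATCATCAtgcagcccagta
Srxn1: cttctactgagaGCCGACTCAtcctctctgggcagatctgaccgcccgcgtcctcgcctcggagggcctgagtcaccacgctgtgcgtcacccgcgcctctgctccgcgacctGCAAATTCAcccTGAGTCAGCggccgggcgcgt
Gclm: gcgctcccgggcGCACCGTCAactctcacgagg
Txnrd1: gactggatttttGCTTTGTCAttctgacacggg
In Slc7a11 the first TGATGCAA begins 66 bases before the start and the second, on the other strand, 47 bases before it. The second overlaps a loose antioxidant response element that begins 45 bases before the start. Srxn1 holds 3 loose elements, which begin 158, 57 and 45 bases before its start.

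Per kilobase of exon, which makes levels comparable between genes, the median over the 14 tumors was highest for Nfe2l2 (77.0 CPM per kb), Hmox1 (76.2), Gsr (63.5) and Gclc (48.9 CPM per kb). Txnrd1 (18.8), Srxn1 (11.0) and Keap1 (10.4 CPM per kb) followed, then Gclm (5.29), Slc7a11 (2.54) and Nqo1 (0.968 CPM per kb). Nqo1, the quinone reductase often used as the readout of Nrf2, was thus at the bottom of the list, with 14 to 137 counts per tumor. Exon length is the union over annotated transcripts, so a gene with long minor isoforms, such as Slc7a11, ranks lower on this scale than its main transcript alone would.

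**Figure D1:**
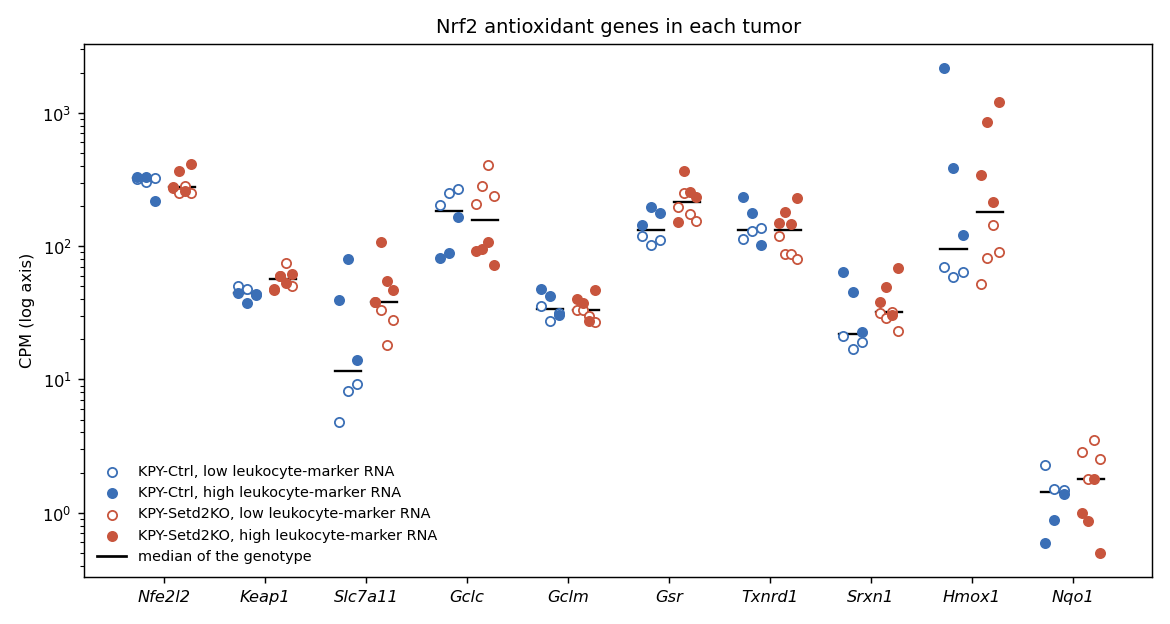
Level of each of the 10 genes in every tumor, in CPM on a log axis, with KPY-Ctrl in blue (n = 6), KPY-Setd2KO in red (n = 8), open circles for the 7 tumors low in leukocyte-marker RNA, filled circles for the 7 high ones, and a black line at the median of each genotype. The genotypes overlap for every gene. The medians of open and filled circles have the largest ratio for Hmox1 (69.5 and 386 CPM), whose ranges overlap, and those of Gclc do not overlap, with 202 to 403 CPM in the open and 71.9 to 166 CPM in the filled circles.

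Over all 14 tumors, edgeR's quasi-likelihood test called none of the 10 genes for genotype (adjusted p under 0.05), and no other gene either (0% of 16836 genes). At an unadjusted p under 0.05 there were 2 of the 10, Keap1 and Gsr, against 13.7% of all genes. DESeq2 called 4.57% of all genes and again none of the 10. The median log2 fold change of the 10 genes was 0.17, beside 0.03 for all genes tested. With library size as the only scaling, the median over all genes fell from 0.03 to -0.11, so small directions should not be read.

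Keap1 lies on chromosome 9 (GRCm38, 21229730 to 21239361, minus strand). Its level was 37.5, 44.4 and 50.0 CPM (lowest, median and highest) in KPY-Ctrl and 47.1, 56.4 and 75 CPM in KPY-Setd2KO. The ranges overlapped in a narrow band between 47.1 and 50.0 CPM. Its log2 fold change was 0.35 (SE 0.13), with an adjusted p of 0.261 in edgeR and 0.0889 in DESeq2, while the exact permutation test of the single gene gave an unadjusted p of 0.00799. In the 7 tumors high in leukocyte-marker RNA, Keap1 was 37.5 to 44.7 CPM in KPY-Ctrl and 47.3 to 62.0 CPM in KPY-Setd2KO, without overlap. The share of all genes apart there was not counted. The log2 fold change was 0.41 (SE 0.16, edgeR adjusted p = 0.332). In the 7 low tumors the ranges overlapped (0.26, SE 0.17, edgeR adjusted p = 0.358). Nfe2l2, on chromosome 2 (75675513 to 75704641, minus strand), was 219, 323 and 329 CPM in KPY-Ctrl and 248, 276 and 413 CPM in KPY-Setd2KO. Of the KPY-Ctrl tumors, 5 lay between 304 and 329 CPM and tumor 6 alone below them, and the KPY-Setd2KO range covered the other KPY-Ctrl tumors, with a log2 fold change of -0.04 (SE 0.16, edgeR adjusted p = 0.953).

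The log2 ratio of Keap1 to Nfe2l2, inhibitor over factor, does not depend on scaling. It averaged -2.76 ± 0.27 (SD, n = 6) in KPY-Ctrl and -2.38 ± 0.29 (SD, n = 8) in KPY-Setd2KO, a difference of 0.38 (exact permutation test, two-sided, p = 0.0273, and 0.0546 after Benjamini-Hochberg adjustment over the 4 ratios compared). The ratio thus rose in the unadjusted test and missed the threshold after adjustment. Leaving out KPY-Ctrl 6 or KPY-Setd2KO 4 brought the adjusted p to 0.0171 or 0.0256, and without each of the other 12 tumors it stayed above the threshold, up to 0.104 without KPY-Ctrl 1 (exact permutation tests).

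Glutathione synthesis starts with cystine, which system xc- imports in exchange for glutamate. Slc7a11 encodes the transporter subunit of that system and Slc3a2 its partner chain. Slc7a11, on chromosome 3 (49892526 to 50443614, minus strand), was 39.2, 79.9, 4.78, 8.23, 9.30 and 13.9 CPM in KPY-Ctrl 1 to 6. In KPY-Setd2KO 1 to 8 it was 37.8, 107, 54.6, 46.8, 38.4, 32.9, 18.0 and 28.1 CPM. Of the KPY-Ctrl tumors, 4 lay below every KPY-Setd2KO tumor and the other 2, both high in leukocyte-marker RNA, lay within their range. The log2 fold change over all tumors was 0.81 (SE 0.60, edgeR adjusted p = 0.608), with an unadjusted p of 0.0536 in the exact permutation test on log2 CPM.

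Among the 7 tumors low in leukocyte-marker RNA, Slc7a11 stood at 4.78 to 9.30 CPM in 3 KPY-Ctrl tumors and at 18.0 to 38.4 CPM in 4 KPY-Setd2KO tumors. The genotypes did not overlap there, as for 13% of all genes with KPY-Setd2KO higher and 13.8% with KPY-Setd2KO lower. The fit to these 7 tumors gave a log2 fold change of 1.97 (SE 0.34) and an adjusted p of 0.0249 in edgeR, and Slc7a11 was the only one of the 10 genes called, against 6.26% of 17739 genes (4 of the 10 at an unadjusted p under 0.05, against 27.8%). DESeq2 called 3 of the 10 on the same tumors, Slc7a11, Gsr and Srxn1, against 19.1% of all genes. The edgeR call was lost when KPY-Ctrl 4 (adjusted p = 0.116), KPY-Ctrl 5 (0.106) or KPY-Setd2KO 6 (adjusted p = 0.0671) was left out, while the log2 fold change stayed between 1.69 and 2.16. Within the 7 tumors high in leukocyte-marker RNA the log2 fold change was 0.47 (SE 0.58, edgeR adjusted p = 0.731). The fold change was not shown to depend on leukocyte-marker RNA: the genotype by score term was -0.41 per unit of score (SE 0.15, unadjusted p = 0.0176, edgeR adjusted p = 0.298). None of the 10 genes passed this test after adjustment, against 0.481% of all genes, and Slc7a11 alone had an unadjusted p under 0.05. These 7 tumors were set apart after the marker RNA had been seen. Their leukocyte score was 3.06 to 4.20 in KPY-Ctrl tumors and 2.95 to 5.15 in KPY-Setd2KO tumors, and summed macrophage markers were 694 to 1110 CPM and 464 to 2179 CPM. Summed markers of other cell types reached higher levels in KPY-Setd2KO in these tumors, with ranges that overlapped those of KPY-Ctrl. The summed levels in KPY-Ctrl and KPY-Setd2KO were 16.8 to 24.9 and 24.5 to 76.5 CPM for 10 endothelial markers, 6.05 to 13.4 and 12.2 to 29.7 CPM for the 6 of 10 fibroblast markers that passed the filter, and 62.5 to 103 and 96.5 to 752 CPM for 5 of 6 erythroid markers. The 20 epithelial markers summed to 47044 to 75860 CPM and 25887 to 68964 CPM. The part of RNA from other cells in the genotype differences within these 7 tumors was not tested.

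**Figure D2:**
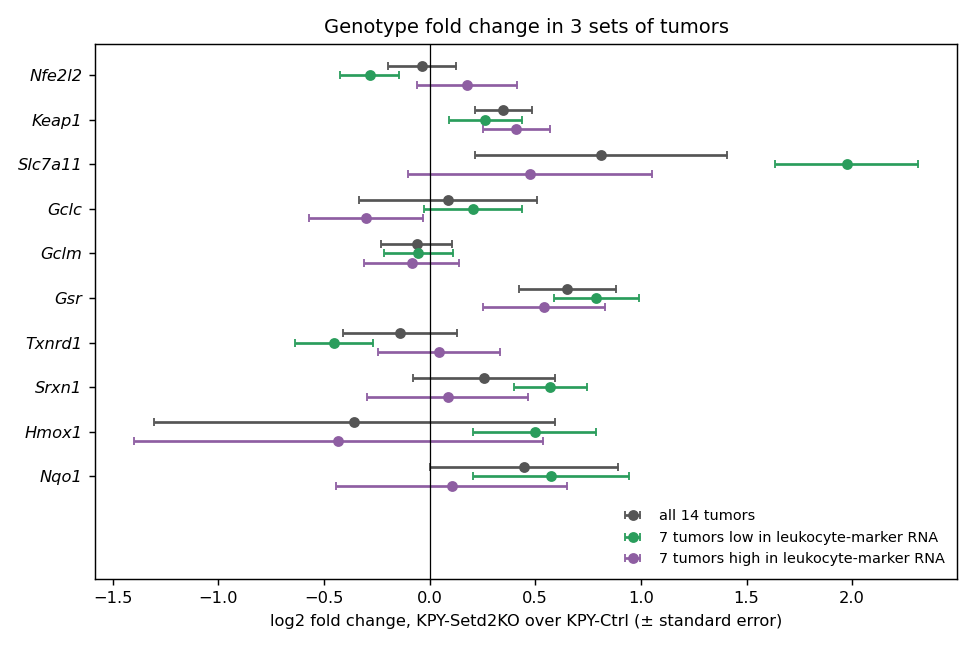
Log2 fold change of each gene, KPY-Setd2KO over KPY-Ctrl, with a standard error derived from the F statistic of edgeR's test, for all 14 tumors (grey), the 7 tumors low in leukocyte-marker RNA (green) and the 7 tumors high in it (purple). Slc7a11 lies at 1.97 in the low tumors and at 0.47 in the high ones, and Gsr at 0.79 and 0.54.

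The log2 ratio of Slc7a11 to Slc3a2 averaged -3.53 ± 1.12 (SD, n = 6) in KPY-Ctrl and -2.48 ± 0.60 (SD, n = 8) in KPY-Setd2KO. The difference was 1.04 (exact permutation test, two-sided, p = 0.0430, adjusted over the 4 ratios 0.0573). Leaving out KPY-Ctrl 2, whose Slc7a11 level was the highest of the controls, gave a difference of 1.44 and an adjusted p of 0.00622, and without KPY-Setd2KO 4 the adjusted p was 0.0396 (exact permutation tests). Without each of the other 12 tumors it stayed above the threshold, up to 0.141 without KPY-Ctrl 3, where the difference was 0.76 (exact permutation test). Slc3a2 itself was 103 to 616 CPM in KPY-Ctrl and 149 to 500 CPM in KPY-Setd2KO, with a log2 fold change of 0.08 (SE 0.41, edgeR adjusted p = 0.960).

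Glutamate cysteine ligase, the rate-limiting enzyme of glutathione synthesis, joins a catalytic subunit (Gclc) and a modifier subunit (Gclm). Gclc, on chromosome 9 (77754535 to 77794485, plus strand), was 81.4, 184 and 267 CPM in KPY-Ctrl and 71.9, 156 and 403 CPM in KPY-Setd2KO (log2 fold change 0.09, SE 0.42, edgeR adjusted p = 0.957). Gclm, on chromosome 3 (122245557 to 122270732, plus strand), was 27.5, 33.7 and 47.6 CPM in KPY-Ctrl and 26.8, 33.3 and 46.9 CPM in KPY-Setd2KO. Its ranges almost coincided, and its log2 fold change was -0.06 (SE 0.17, edgeR adjusted p = 0.918). The log2 ratio of Gclm to Gclc was -2.17 ± 1.02 (SD, n = 6) in KPY-Ctrl and -2.22 ± 1.10 (SD, n = 8) in KPY-Setd2KO, a difference of -0.04 (exact permutation test, p = 0.925) whose sign turned when single tumors were left out.

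Gsr, glutathione reductase, restores reduced glutathione from its oxidized form with NADPH. The gene lies on chromosome 8 (33652523 to 33698163, plus strand). Its level was 102, 132 and 197 CPM in KPY-Ctrl and 153, 215 and 364 CPM in KPY-Setd2KO. KPY-Ctrl 2 and 6 lay within the KPY-Setd2KO range and the other 4 below it. The log2 fold change was 0.65 (SE 0.23, edgeR adjusted p = 0.237, DESeq2 0.0759), and the exact permutation test of the single gene gave an unadjusted p of 0.0157. In the 7 tumors low in leukocyte-marker RNA the values were 102 to 119 CPM in KPY-Ctrl and 153 to 250 CPM in KPY-Setd2KO. They did not overlap, as for 13% of all genes with KPY-Setd2KO higher. The log2 fold change there was 0.79 (SE 0.20), just short of the threshold in edgeR (adjusted p = 0.0537) and past it in DESeq2 (0.00529). In the 7 high tumors it was 0.54 (SE 0.29, edgeR adjusted p = 0.426).

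Txnrd1, cytosolic thioredoxin reductase, passes electrons from NADPH to thioredoxin, the arm that runs beside glutathione. It lies on chromosome 10 (82833951 to 82897712, plus strand). Its level was 102, 133 and 235 CPM in KPY-Ctrl and 79.9, 133 and 230 CPM in KPY-Setd2KO, with medians that differed by less than 1 CPM (log2 fold change -0.14, SE 0.27, edgeR adjusted p = 0.881). The log2 ratio of Txnrd1 to Gsr was 0.05 ± 0.52 (SD, n = 6) in KPY-Ctrl and -0.76 ± 0.51 (SD, n = 8) in KPY-Setd2KO. The difference of -0.81 had p = 0.0147 in the two-sided exact permutation test and 0.0546 after adjustment over the 4 ratios. Without KPY-Ctrl 2, KPY-Ctrl 6, KPY-Setd2KO 1 or KPY-Setd2KO 4 the adjusted p was 0.0451, 0.0171, 0.0350 or 0.0256 (exact permutation tests). Without each of the other 10 tumors it stayed above the threshold, up to 0.104 without KPY-Ctrl 1 (exact permutation test). In the 7 low tumors the ratio was -0.08 to 0.36 in KPY-Ctrl tumors and -1.51 to -0.74 in KPY-Setd2KO tumors, without overlap. Keap1 to Nfe2l2 did not overlap there either (-2.88 to -2.66 in KPY-Ctrl and -2.53 to -1.90 in KPY-Setd2KO). Nor did Slc7a11 to Slc3a2 (-4.97 to -3.46 and -3.04 to -2.22). Of all single genes, 13% did not overlap in these tumors with KPY-Setd2KO higher and 13.8% with KPY-Setd2KO lower. The share of ratios between genes that did not overlap was not counted. Gsr, Nfe2l2 and Slc7a11, each part of 1 of these ratios, did not overlap as single genes either.

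**Figure D3:**
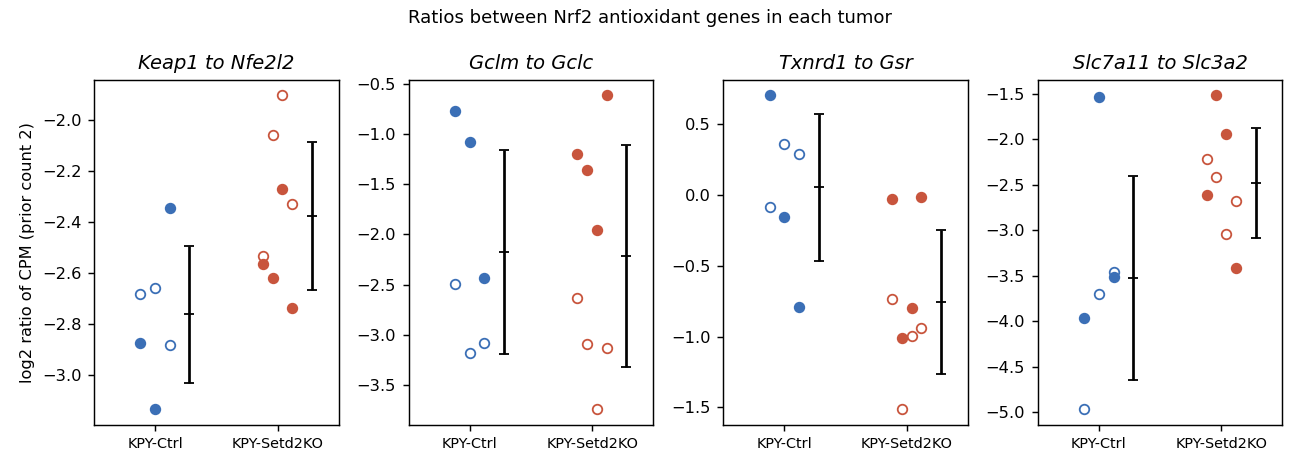
Log2 ratios of 4 pairs of genes in each tumor (log2 CPM with a prior count of 2), with open circles for the 7 tumors low in leukocyte-marker RNA, filled circles for the 7 high ones, and bars for the mean and SD of 6 KPY-Ctrl and 8 KPY-Setd2KO tumors. Txnrd1 to Gsr averages 0.05 in KPY-Ctrl and -0.76 in KPY-Setd2KO, and the 2 genotypes overlap in all 4 panels.

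Srxn1, sulfiredoxin, repairs overoxidized peroxiredoxins. It lies on chromosome 2 (152105516 to 152111376, plus strand) and was 17.0, 21.9 and 64.5 CPM in KPY-Ctrl and 22.9, 31.8 and 68.8 CPM in KPY-Setd2KO. The ranges overlapped (log2 fold change 0.26, SE 0.34, edgeR adjusted p = 0.813). In the 7 low tumors the genotypes were apart, with 17.0 to 21.1 CPM in KPY-Ctrl and 22.9 to 32.3 CPM in KPY-Setd2KO, and the log2 fold change of 0.57 (SE 0.17) was not called by edgeR (adjusted p = 0.0800) and was called by DESeq2 (0.0312). Nfe2l2 was the only one of the 10 genes whose KPY-Setd2KO tumors lay wholly below KPY-Ctrl in this set, at 248 to 281 CPM against 304 to 324 CPM (log2 fold change -0.28, SE 0.14, edgeR adjusted p = 0.220). Of all genes, 13% were apart in this set with KPY-Setd2KO higher and 13.8% with KPY-Setd2KO lower.

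Hmox1, heme oxygenase, breaks heme down to biliverdin, iron and carbon monoxide, and macrophages express it strongly. It lies on chromosome 8 (75093621 to 75100589, plus strand) and was the most variable of the 10 genes, at 58.5, 95.6 and 2162 CPM in KPY-Ctrl and 51.8, 180 and 1202 CPM in KPY-Setd2KO. The genotypes overlapped almost fully, with a log2 fold change of -0.36 (SE 0.95, edgeR adjusted p = 0.916), and DESeq2 gave no p because of an extreme count. The mean of log2 CPM was 0.30 higher in KPY-Setd2KO, opposite in sign to the fitted fold change. Nqo1, on chromosome 8 (107388225 to 107403206, minus strand), was 0.597, 1.44 and 2.28 CPM in KPY-Ctrl and 0.501, 1.79 and 3.53 CPM in KPY-Setd2KO (log2 fold change 0.45, SE 0.45, edgeR adjusted p = 0.731).

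With the leukocyte score in the model, edgeR still called none of the 10 genes for genotype, against 5.09% of all genes, and 3 had an unadjusted p under 0.05 (23.5% of all genes). These were Gsr (log2 fold change 0.64, SE 0.19, adjusted p = 0.0617), Keap1 (0.36, SE 0.12, adjusted p = 0.0918) and Slc7a11 (1.08, SE 0.44, adjusted p = 0.155). DESeq2 with the same covariate called 2 of the 10, Gsr (adjusted p = 0.0161) and Keap1 (0.0478), against 12.9% of all genes. All 3 were higher in KPY-Setd2KO in both tools. The tools differed in the calls of Gsr and Keap1, and neither called Slc7a11 (DESeq2 adjusted p = 0.0555). With single tumors left out, the adjusted p in edgeR ran from 0.0255 to 0.153 for Gsr and from 0.0401 to 0.314 for Slc7a11. Each of these genes passed in only 1 of those fits.

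Between tumors of the same genotype, 6 of the 10 genes moved with leukocyte-marker RNA, a share near that of all genes (56.8%). In the same edgeR fit, 4 of the 10 rose with the leukocyte score, against 28.3% of all genes, and 2 fell, against 28.4%. Those that rose were Hmox1 (slope 0.73 log2 units per unit of score, SE 0.12, adjusted p = 0.000129), Slc7a11 (0.35, SE 0.09, adjusted p = 0.00612), Srxn1 (0.20, SE 0.05, adjusted p = 0.00458) and Txnrd1 (0.15, SE 0.04, adjusted p = 0.00720). Those that fell were Gclc (slope -0.31, SE 0.06, adjusted p = 0.000410) and Nqo1 (-0.26, SE 0.08, adjusted p = 0.00947). Gsr (0.10, adjusted p = 0.0587), Gclm (0.06, 0.104), Nfe2l2 (0.03, adjusted p = 0.405) and Keap1 (-0.02, adjusted p = 0.613) did not pass. On an epithelial score with its sign turned, 8 of the 10 passed, 6 up and 2 down (56.1% of all genes), with Gsr (slope 0.29 per unit of that score, edgeR adjusted p = 0.0180) and Gclm (0.21, edgeR adjusted p = 0.0215) added to those that rose and a median slope of the 10 of 0.25 in place of 0.08. Scaling by library size alone moved the calls over all genes from 4772 up and 4785 down to 3141 up and 6754 down, and under it Srxn1 (adjusted p = 0.0504) and Txnrd1 (0.149) were no longer called, Keap1 fell (slope -0.10, adjusted p = 0.00595), and the slopes of Nfe2l2 and Gclm turned negative without passing. Macrophage and epithelial markers moved with the score, and whether these slopes come from immune RNA or from tumor cells was not tested.

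Of the subunits of glutamate cysteine ligase, the catalytic one fell with the score and the modifier did not pass. Gclc was 202 to 403 CPM in the 7 tumors low in leukocyte-marker RNA and 71.9 to 166 CPM in the 7 high ones, lower without overlap, as were 9.35% of all genes. Gclm was 26.8 to 35.8 CPM in the first and 27.5 to 47.6 CPM in the second. Hmox1 had medians of 69.5 and 386 CPM in these tumors, Slc7a11 of 18.0 and 46.8 CPM, Srxn1 of 22.9 and 45.3 CPM, and Nqo1 of 2.28 and 0.881 CPM. These sets of tumors were drawn from measured marker RNA and are not conditions of the study.

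**Figure D4:**
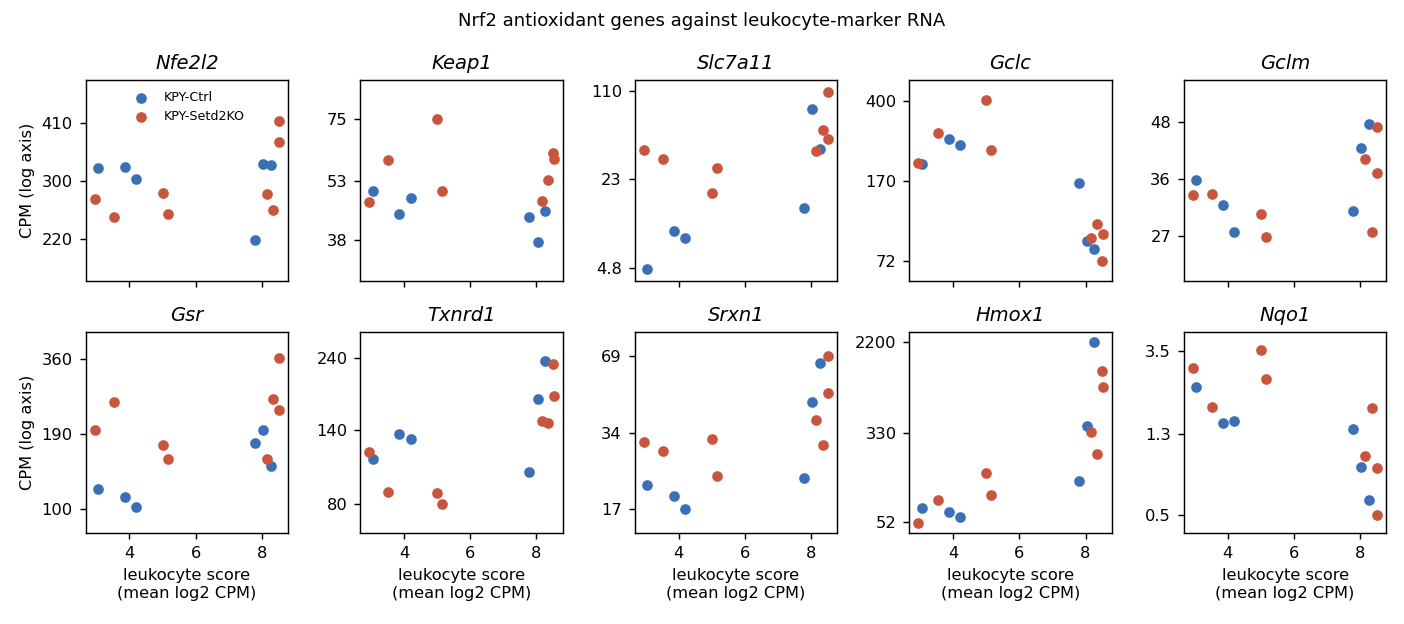
Level of each gene in CPM (log axis, scaled per panel) against the leukocyte score, the mean log2 CPM of 20 leukocyte markers, with 1 point per tumor (KPY-Ctrl blue, n = 6; KPY-Setd2KO red, n = 8). No tumor lies between scores of 5.15 and 7.79, Hmox1 climbs from a median of 69.5 to 386 CPM across that gap, and Gclc drops from 250 to 91.7 CPM.

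How the 10 genes varied together was examined in the 2 sets of 7 tumors separately, after taking out the genotype means, since a correlation over all 14 would rest on the gap in the score. Of 45 pairs, 11 passed an adjusted permutation p under 0.05 in the 7 tumors high in leukocyte-marker RNA and 1 in the 7 low ones (Benjamini-Hochberg over 90 pairs). By rank correlation 1 pair passed, Txnrd1 and Srxn1 in the high tumors. The permutations moved deviations freely over 7 tumors and did not allow for the genotype means taken out before. These p-values may therefore be too small. Pearson's r was at least 0.9 in size for 9 of the 45 pairs in the high tumors (20%, against 2.15% of all pairs of genes tested) and for 0 of the 45 in the low tumors (against 4.23%). That limit was chosen after the values were seen, and pairs that share a gene are not independent. In the high tumors the 10 pairs among Nfe2l2, Gclm, Hmox1, Txnrd1 and Srxn1 all had a positive r, from 0.84 to 0.98, and 5 of them passed the adjusted test. These genes were picked after the values were seen. The other pairs that passed in the high tumors all had a negative r and held Nqo1 or Gclc. Nqo1 ran opposite to Nfe2l2 (r = -0.89), Gclm (r = -0.96) and Srxn1 (r = -0.94), with adjusted permutation p of 0.0290, 0.0268 and 0.0446. The closest pair was Txnrd1 and Srxn1, with r = 0.98 and rho = 1.00 (permutation p = 0.000198 and 0.000397, adjusted 0.0179 and 0.0357), and r = 0.97 without the 2 tumors farthest from the median. Gclc ran opposite to Txnrd1 there (r = -0.95, rho = -0.96, permutation p = 0.000992 and 0.00278, adjusted 0.0268 and 0.05), with r = -0.86 without the 2 farthest tumors. In the low tumors Txnrd1 and Srxn1 had r = 0.31 and rho = 0.11 (permutation p = 0.503 and 0.840, adjusted 0.768 and 0.922), with r = 0.04 without 2 tumors. The pair that passed in the low tumors was Hmox1 and Slc7a11, with r = -0.79 and rho = -0.86 (permutation p = 0.00317 and 0.0238, adjusted 0.0317 and 0.126), and r = -0.74 without 2 tumors. Within the high tumors the macrophage score still ran from 7.11 to 8.78, and within the low tumors from 3.43 to 5.62. Its part in the relations of either set was not tested.

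Around the 10 genes, 105 further genes of the pathway were followed in 6 lists, of which 104 passed the filter. For genotype over all tumors edgeR called 0 of the 104. An unadjusted p under 0.05 was found for 11 (5 higher and 6 lower in KPY-Setd2KO), against 13.7% of all genes. DESeq2 called 3, Ggct, Gpx8 and Fbxw7, against 4.57% of all genes. The median log2 fold change of the 104 was 0.05, beside 0.03 for all genes. Gpx8, a peroxidase of the endoplasmic reticulum, was 1.61, 1.92 and 4.25 CPM (lowest, median and highest) in KPY-Ctrl and 4.98, 7.76 and 32.0 CPM in KPY-Setd2KO, without overlap. Its log2 fold change of 2.26 (SE 0.45) had an adjusted p of 0.116 in edgeR. Ggct, which acts in glutathione breakdown and was picked after its values were seen, was 13.0, 18.7 and 27.6 CPM in KPY-Ctrl and 28.2, 37.3 and 45.8 CPM in KPY-Setd2KO, also without overlap (log2 fold change 0.93, SE 0.19, edgeR adjusted p = 0.116). The share of all genes without overlap over all tumors was not counted, so the separation of Gpx8 and Ggct has no background beside it. With the leukocyte score in the model edgeR called 3 of the 104, against 5.09% of all genes: Gpx8 (2.20, SE 0.44, adjusted p = 0.0176) and Ggct (0.93, SE 0.15, adjusted p = 0.0108) were higher in KPY-Setd2KO, and Ugt1a6a, a glucuronosyltransferase whose counts may be shared with other Ugt1a genes, was lower (-0.74, SE 0.18, adjusted p = 0.0324). The count was 1 without KPY-Ctrl 4 or KPY-Ctrl 5, 7 without KPY-Setd2KO 1 and 9 without KPY-Ctrl 1, and over all genes it fell from 857 to 164 without KPY-Ctrl 4, 203 without KPY-Ctrl 5, 277 without KPY-Setd2KO 6, 448 without KPY-Setd2KO 4 and 469 without KPY-Ctrl 2.

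The gene with the smallest p for genotype in each other list was Fbxw7 among the regulators (log2 fold change 0.74, SE 0.24, edgeR adjusted p = 0.197), Cat, catalase (-0.58, SE 0.23, adjusted p = 0.286), the iron exporter Slc40a1 (-0.92, SE 0.48, adjusted p = 0.431), and Mthfd2 of mitochondrial folate metabolism (-0.57, SE 0.23, adjusted p = 0.283). EdgeR called none of these over all 14 tumors, and DESeq2 called Fbxw7. In the 7 low tumors edgeR called 15 of 103 pathway genes, of which 7 were higher in KPY-Setd2KO (3.31% of all genes) and 8 lower (2.95%). Higher were Prdx5, a peroxiredoxin (log2 fold change 1.16, SE 0.18, adjusted p = 0.0220), Txn1, thioredoxin (1.03, SE 0.21, adjusted p = 0.0336), the small Maf gene Maff (0.96, SE 0.19, adjusted p = 0.0321), Ggct, Gpx8, Fbxw7 and Pgd. Lower were Cat (-1.04, SE 0.21, adjusted p = 0.0338), Bach1, a repressor that competes with Nrf2 for its elements (-0.83, SE 0.20, adjusted p = 0.0487), Txnip, an inhibitor of thioredoxin (-0.95, SE 0.22, adjusted p = 0.0442), Sesn3, Fech, Gstm2, Ugt1a6a and Ugt1a7c. These names were taken after the values were seen. Leaving out KPY-Ctrl 4, KPY-Ctrl 5 or KPY-Setd2KO 6 left 0 of the 103 called, and over all genes 0, 0 and 44 calls in place of 1111.

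For the slope on the leukocyte score, 79 of the 104 pathway genes passed, 37 up and 42 down, against 28.3% of all genes up and 28.4% down. Differences between the lists were not tested. In the glutathione list 6 of 33 rose and 19 fell, with a median slope of -0.25, and in the detoxification list 4 of 19 rose and 13 fell (median -0.26), beside a median of -0.01 for all genes. Their genes with the smallest p were Gss, glutathione synthetase (slope -0.30, SE 0.03, adjusted p = 6.88e-07), and Akr1b3, an aldose reductase (0.35, SE 0.03, adjusted p = 5.12e-07). In the heme and iron list 7 of 9 rose and 1 fell (median 0.26), led by Fth1, the ferritin heavy chain (0.71, SE 0.04, adjusted p = 5.63e-10). Among regulators 8 of 18 rose and 3 fell (median 0.05), led by Nfe2, a relative of Nrf2 used by blood cells (0.67, SE 0.07, adjusted p = 2.44e-06). Thioredoxins and peroxidases had 8 of 17 up and 5 down (median 0.03), led by Msrb1, a methionine sulfoxide reductase (0.74, SE 0.04, adjusted p = 4.32e-09), and NADPH supply had 4 of 8 up and 1 down (median 0.12), led by Taldo1, transaldolase (0.44, SE 0.03, adjusted p = 2.69e-08). All adjusted p-values here are from edgeR's quasi-likelihood test over all genes.

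**Figure D5:**
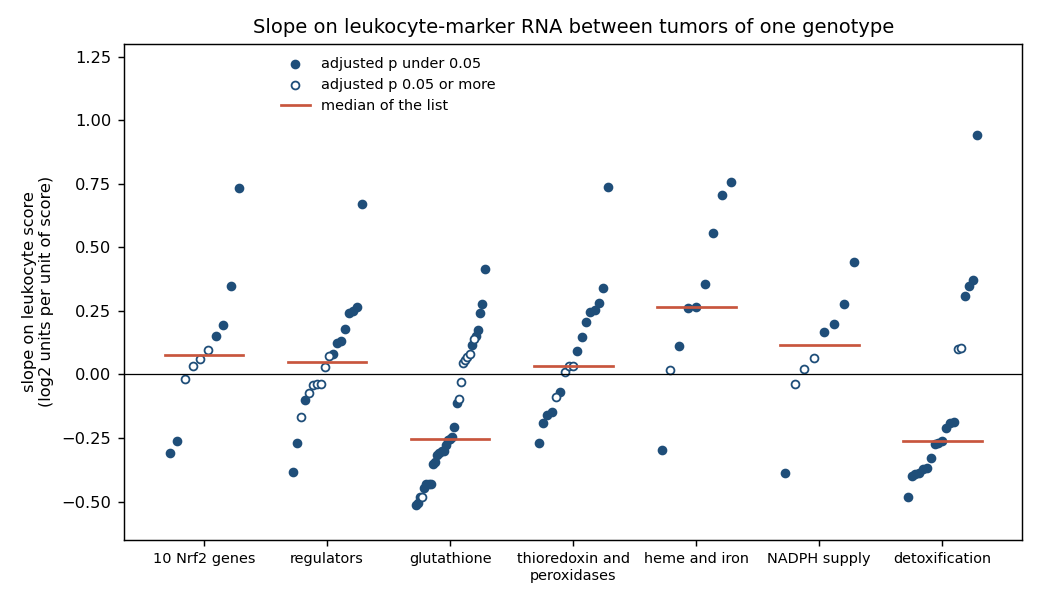
Slope on the leukocyte score (log2 units per unit of score, edgeR fit with genotype) for the 10 Nrf2 genes and the 6 pathway lists, with filled circles for an adjusted p under 0.05, open circles for the rest, and a red line at the median of each list. The glutathione and detoxification lists lie mostly below 0, with medians of -0.25 and -0.26, and the heme and iron list mostly above it, with a median of 0.26.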

How the data were processed

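RNA-seq of 6 KPY-Ctrl and 8 KPY-Setd2KO tumors was analyzed. The full genotype of the KPY model is not reported here. The deposited values were estimated counts, obtained by the authors with Salmon 0.8.2 on GRCm38.p5 and written as whole numbers per Ensembl gene (8 very large values with 3 digits only). Symbols, positions and exon lengths came from GENCODE annotation of GRCm38. Counts were rounded, filtered (edgeR filterByExpr), TMM-normalized and compared with edgeR 4.0.16 (robust quasi-likelihood test, Benjamini-Hochberg adjustment over all genes) in R 4.3.3. Calls needed an adjusted p under 0.05. The SE given with edgeR values was derived as the size of the fold change or slope over the square root of the test's F statistic. DESeq2 1.42.0 and limma 3.58.1 were alternatives. Log2 CPM used a prior count of 2. Single values were compared by exact permutation. The genotype fits were tested on simulated counts, drawn with the same spread for all genes and without a split in leukocyte-marker RNA. Every changed gene that was called there had the right sign. Only a minority was recovered at the common spread estimated from these tumors. The spread between tumors, more than counting error, limits the comparisons.

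The members, gene lists and tests were chosen with earlier results of these data known. Named genes were the 10 members, Setd2, the genes of the 4 ratios, and in each pathway list the genes with the smallest p for genotype and for the score slope. The gene most correlated with each member was also planned and is not given, because the tumors fall into separate sets. The sources do not say that counting used strand, so antisense overlap cannot be told apart.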

Additional observations from a re-analysis of the deposited data

Results flagged for a closer look

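Of the 10 genes and 4 ratios, examined in both genotypes (28 groups of tumors), 1 group held a tumor far from the others by Dixon's criterion. Nfe2l2 in KPY-Ctrl tumor 6 had a log2 CPM of 7.78, and the other 5 KPY-Ctrl tumors lay between 8.25 and 8.36. Chance alone flags about 1 group in 20. Tumor 6 is high in leukocyte-marker RNA, and any link with its Nfe2l2 level was not tested.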

How the results depend on the processing

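Counting error is small for the 10 genes except Nqo1 and larger for pathway genes near 0 CPM, such as Gsta1, Gsta2, Ggt1 and Sod3, and the spread between tumors sets the limits. For genotype, the count of the 10 genes called was 0 under RLE size factors, library size only, both filters, DESeq2, limma voom and a log2 fold change over 1, and 6 under limma voom with quality weights, which called 58 pathway genes and 8340 genes in all. DESeq2 called 3 pathway genes and 770 genes in all. Leaving out the 7 tumors high in leukocyte-marker RNA, an alternative chosen after seeing the data, gave 1, 15 and 1111 calls with edgeR and 3, 25 and 3395 with DESeq2. With the leukocyte score, DESeq2 called 2 of the 10 genes. The cause of these differences was not tested. Setd2 passed with the score (-0.84 with edgeR and with DESeq2), with DESeq2 (-0.74), with quality weights (-0.75) and in the 7 low tumors (-1.27 with edgeR, -1.28 with DESeq2). In edgeR it did not pass in the 7 high tumors (-0.34, adjusted p = 0.425) or by library size only without the score (-0.94, adjusted p = 0.151). With the replicate block it did not pass either (-0.67, edgeR adjusted p = 0.435, and -0.75, 0.109 with the score). By library size only, the calls with the score moved from 493 up and 364 down to 392 and 1059, and those in the 7 low tumors from 587 and 524 to 458 and 733.

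Signs that turned were all of genes not called in the analysis reported. For genotype they were Nfe2l2 in the 7 high tumors (0.18), Nqo1 with quality weights (-0.19), Gclc by library size only (-0.0606), with limma voom (-0.0112), with quality weights (-0.90) and in the 7 high tumors (-0.30), Gclm with quality weights (0.14), Hmox1 with limma voom (0.30), with quality weights (1.93) and in the 7 low tumors (0.50 with edgeR, 0.49 with DESeq2), and Txnrd1 with quality weights (0.11) and in the 7 high tumors (0.0453). Quality weights thus turned Gclc and Hmox1 past the threshold in the other direction. By library size only, Gclc with the score became -0.0550, and the slopes of Nfe2l2 and Gclm -0.0461 and -0.0151.

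Leaving out single tumors gave 0 of the 10 genes and 0 pathway genes called for genotype, 0 to 1 calls over all genes, a median of the 10 log2 fold changes from 0.11 to 0.32, 0 to 1 of the 10 genes called with the score, 6 to 7 for the slope and 75 to 81 pathway genes for the slope. Within the 7 low tumors it gave 0 to 2 of the 10 genes and 0 to 1955 of all genes. Setd2 stayed between -0.85 and -0.66. Fold changes whose sign turned for genotype ranged from -0.17 to 0.24 for Gclc, -0.14 to 0.0359 for Gclm, -0.91 to 1.41 for Hmox1 and -0.29 to 0.0378 for Txnrd1. With the score they ranged from -0.0654 to 0.31 for Gclc and -0.49 to 0.55 for Hmox1, and in the 7 low tumors from -0.19 to 0.00248 for Gclm. The ratio differences ranged from 0.31 to 0.47 (Keap1 to Nfe2l2), -0.27 to 0.24 (Gclm to Gclc), -0.98 to -0.68 (Txnrd1 to Gsr) and 0.76 to 1.44 (Slc7a11 to Slc3a2).

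The labels give both genotypes replicate numbers 1 to 6. Deviations of same-numbered tumors correlated from -0.66 to 0.66, negatively for 3 of 6 numbers. The correlation was positive for numbers 1, 2 and 5, whose 2 tumors were both low or both high in leukocyte-marker RNA. It was negative for numbers 3, 4 and 6, whose tumors were on opposite sides. Because the sign followed that split, the correlations cannot show whether the numbers pair tumors. With the replicate block, 0 of the 10 genes were called for genotype, with or without the score, and for the slope 1 of the 10 genes (Gclc) and 47 pathway genes. Calls with the score were then 0 pathway genes and 2 genes in all. The replicate block turned the genotype values of Gclc (-0.33), Gclm (0.0229), Hmox1 (0.53) and Txnrd1 (0.0265), those with the score of Nfe2l2 (0.00134), Gclc (-0.16), Gclm (0.0169) and Hmox1 (0.32), and the slope of Nfe2l2 (-0.00317).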
